A study of Mus musculus with 12 samples.

Results

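Untreated IMCD3 cells, an immortalised line from the deepest part of the mouse collecting duct, made up 3 of the 12 RNA-seq libraries of the series. They were chosen by the column labels of the deposited expression table, as the libraries named Control without NaCl, and no measured value entered the choice. The 12 libraries form 4 groups of 3: mifepristone plus 100 mM added NaCl, mifepristone alone, 100 mM added NaCl alone, and untreated cells, which received the vehicle for both agents. All groups are subclone 53a, so every value describes 1 subclone, grown in low-glucose DMEM with 10% serum. As known of the study, all groups carry a construct that makes a dominant-negative form of a tubule transcription factor when mifepristone is added. No group received mifepristone without that construct, so an effect of the drug and an effect of the mutant cannot be told apart. Nothing in the labels gives the replicates as independent cultures, so the spread between them, on which every p-value here rests, may be technical.

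The collecting duct is the last part of the kidney tubule. It grows from the ureteric bud and holds principal cells, which take up water through vasopressin-regulated aquaporins and sodium through the epithelial sodium channel, and intercalated cells, which move acid and base. In the inner medulla its cells live in a hypertonic interstitium, carry urea transporters and gather organic osmolytes. Segments further up the nephron (proximal tubule, thin limb, thick ascending limb, distal convoluted tubule) each have their own carriers, and the level of those carriers tells which segment programme a tubule cell line has kept.

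A pair of water channel genes and a pair of thick limb marker genes are shown first by the 150 bases before their RefSeq start (GRCm38.p6), because in each pair 1 member was measured in untreated cells and the other was listed with no read. Letters run 5′ to 3′ on the gene's own strand, and capitals mark CG pairs, the dinucleotide in which mammalian DNA is methylated and which reads the same on both strands. Aqp1 lies on the plus strand at chr6:55336149-55336298 and Aqp2 on the plus strand at chr15:99578906-99579055. Umod lies on the minus strand at chr7:119479263-119479412 and Slc12a1 on the plus strand at chr2:125152450-125152599.
Aqp1: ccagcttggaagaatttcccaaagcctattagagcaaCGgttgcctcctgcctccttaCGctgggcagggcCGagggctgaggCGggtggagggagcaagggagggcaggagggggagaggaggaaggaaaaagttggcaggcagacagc
Aqp2: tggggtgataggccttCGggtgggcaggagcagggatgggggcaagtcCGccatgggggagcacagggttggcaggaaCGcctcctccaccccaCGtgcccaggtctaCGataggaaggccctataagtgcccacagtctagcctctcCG
Umod: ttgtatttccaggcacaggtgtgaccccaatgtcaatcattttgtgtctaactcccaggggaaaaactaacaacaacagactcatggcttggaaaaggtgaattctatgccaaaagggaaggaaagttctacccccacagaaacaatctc
Slc12a1: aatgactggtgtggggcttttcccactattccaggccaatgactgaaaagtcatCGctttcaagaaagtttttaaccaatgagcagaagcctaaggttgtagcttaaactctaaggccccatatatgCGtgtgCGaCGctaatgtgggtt
In the 300-base RefSeq window around each start, Aqp1 and Aqp2 both hold 8 CG pairs, Slc12a1 holds 5 and Umod holds 0. The median over 32851 promoters was 7, and 48.7% of them hold at least as many as Aqp1 and Aqp2, 62.0% at least as many as Slc12a1, and 5.43% hold none, as Umod does. The aquaporin genes, of which 1 was expressed and 1 had no read, hold the same number of CG pairs in that window, and in the thick limb pair the expressed gene, Umod, is the one with none. In the 150 bases printed, Aqp1 holds 4 and Aqp2 holds 6. The keratin gene Krt18, with a mean of 273 FPKM, was also looked up and holds 17 in the 300-base window, a number that 31.4% of promoters reach. This is a description of these windows, and a link of CG pairs with expression was not tested.

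Untreated library A held 43440230 reads, B 44003518 and C 47330507, counted over genes as recovered from the deposited values, and all 12 libraries held between 41940955 and 49270776. Levels are given as FPKM, read numbers scaled by gene length and by library depth, as the authors deposited them. A gene is called expressed here at an FPKM of at least 1 in all 3 untreated libraries, silent below 0.1 in all 3, and between otherwise. A gene with no read among the 134774255 reads of the 3 libraries can have a level of up to 0.0223 CPM, the floor of 3 reads, which covers counting error only. Among the 6353 genes whose mean FPKM reached 10, library A differed in direction from B and C. Its deviation from the group mean ran against the number of reads that 1 FPKM is worth, a measure of gene length. The Spearman rho was -0.64 across genes, which are not independent replicates, against 0.42 in B and 0.53 in C. Short genes thus tended to be highest, and long genes lowest, in A. The deviations of a gene cancel over the 3 libraries, so these values cannot show that A alone differs. Without A, 12964 genes were expressed, without B 12876 and without C 12898, against 12806 with all 3. By the rule, leaving out a library can only raise this count. The pairwise Pearson r of log2 levels was 0.9964 between A and B, 0.9947 between A and C and 0.9976 between B and C. As this is bulk RNA, fewer cells that express a gene and less RNA per cell cannot be told apart at any level below.

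Of 48034 genes in the table, 12806 (26.7%) were expressed in untreated cells, 28903 (60.2%) were silent and 6325 (13.2%) lay between, while 22075 (46.0%) had no read. Among 21697 protein-coding genes, 10457 (48.2%) were expressed and 9128 (42.1%) silent. Only 706 genes reached 100 FPKM, 371 of them protein-coding, and 35 reached 1000. The 1433 genes of 65 lists of tubule, epithelial, transporter, receptor and transcription factor genes divided into 636 expressed, 188 between and 609 silent, 299 of the silent ones with no read.

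The profile was steep. The 10 highest genes held 15.9% ± 0.875 of all FPKM (SD, n = 3), the 100 highest 33.3% and the 1000 highest 66.0%. Counted as reads, which are not divided by gene length, the same genes held 6.17%, 13.6% and 38.1%. Pseudogenes count among these genes, the highest gene of the table included. Copies of mitochondrial genes listed with almost the same number of reads (below) are genes of the table too, so these shares may count some reads more than once. The 13 protein-coding genes of the mitochondrial genome held 9.88% of FPKM and 4.52% of reads, and the listed genes of cytosolic ribosomal proteins held 6.90% of FPKM and 4.49% of reads.

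**Figure D1:**
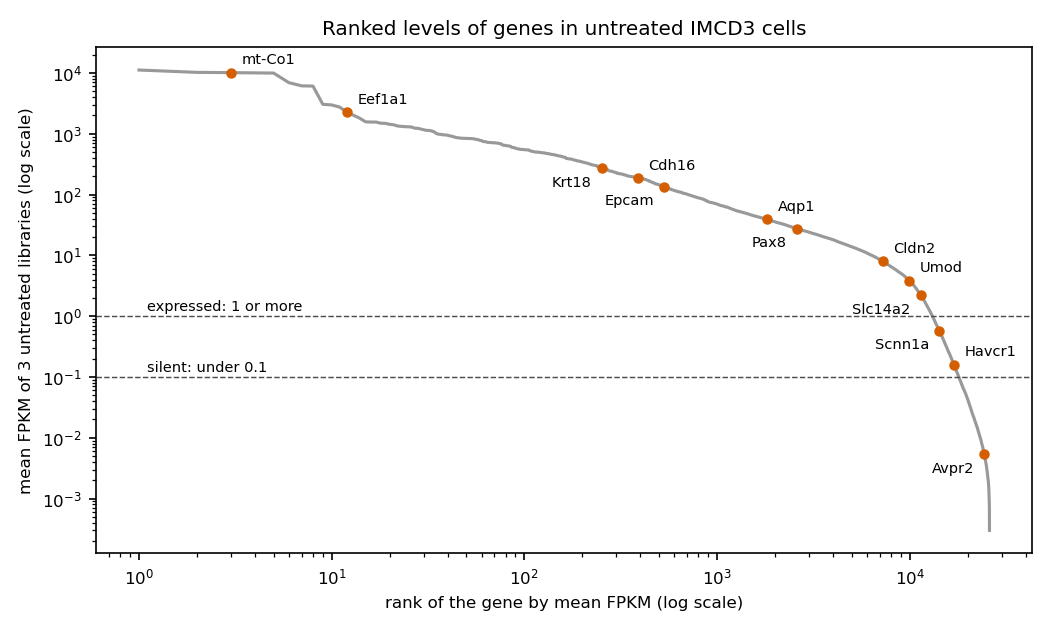
Mean FPKM of the 3 untreated libraries (y axis, log scale) against the rank of the gene by that mean (x axis, log scale), with 13 genes labelled and dashed lines at FPKM 1 and 0.1. The mitochondrial gene mt-Co1 stands at rank 3, the keratin Krt18 at rank 252, the kidney cadherin Cdh16 at rank 390 and the water channel Aqp1 at rank 1827, while Scnn1a lies below the upper line.

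Of the 25 highest protein-coding genes, 11 lie on the mitochondrial genome and code for subunits of the respiratory chain and the ATP synthase. The highest, mt-Co1, a subunit of cytochrome c oxidase, had 10796, 10040 and 9495 FPKM in A, B and C. The others of that group range from mt-Co2 with a mean of 9939 FPKM to mt-Nd4l with 945 FPKM. Translation filled most of the rest: the elongation factor gene Eef1a1 had 2372, 2223 and 2210 FPKM, its partner Eef2 averaged 1132 FPKM, and 7 genes of ribosomal proteins lay between Rps15 with 1300.1 FPKM and Rplp1 with 922 FPKM. Prothymosin Ptma averaged 1556 FPKM, the translationally controlled tumour protein gene Tpt1 1488 FPKM, polyubiquitin Ubb 1483 FPKM and the tubulin gene Tuba1b 982 FPKM. The last of the 25, S100a11, a calcium-binding protein of the S100 family, had 941, 862 and 810 FPKM. None of the 25 is particular to a kidney cell by its known role.

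Several of these genes have near-identical copies. The highest gene of the whole table is the pseudogene Gm29216 at 12502, 10919 and 10059 FPKM, and mt-Co2 and its nuclear copy Gm28661 on chromosome 1 were listed with almost the same number of reads, a ratio of copy to gene of 1.001. The copies of mt-Co3 (Gm28437) and mt-Nd4l (Gm10222), also on chromosome 1, had ratios of 1.006 to 1.007 and about 1.005. The processed copy Tpt1-ps3 on chromosome 6 held 0.422 to 0.449 times the reads of Tpt1. Pseudogenes together held 34.4% of FPKM and 10.3% of reads, and 1454 of 6667 processed pseudogenes were expressed by the rule, so the levels of mt-Co2, mt-Co3, mt-Nd4l and Tpt1 are uncertain by the reads counted on those copies. For the other genes named above, reads on copies were not compared.

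Non-coding genes added little. Of 3543 lincRNA genes 137 were expressed, and all of them together held 0.357% of reads. Malat1, a long nuclear RNA, had 129, 187 and 190.0 FPKM, lowest in A, and Neat1, the scaffold of nuclear paraspeckles, had 19.6, 19.5 and 18.2 FPKM; both were named after their values were seen.

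Below the top 25, the following were named after their values were seen. Cd24a, a surface protein of many epithelial progenitors, had 566, 520 and 492 FPKM (rank 107). Spp1, osteopontin, secreted by tubule epithelium, had 411, 382 and 361 FPKM (rank 172). Ifit3, an interferon-induced gene, had 334, 323 and 321 FPKM (rank 212). The glycolytic genes Pkm, Gapdh and Ldha averaged 714, 451 and 327 FPKM, and the ferritin genes Ftl1 and Fth1 532 and 500 FPKM.

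The collecting duct label was then set against its markers. Of 16 principal cell genes, 4 were expressed, 6 lay between and 6 were silent. The highest was Npnt (chr3:132881745-132950291, minus strand), nephronectin, a matrix protein made by ureteric bud and collecting duct, at 42.4, 44.5 and 45.03 FPKM. Tfcp2l1, a transcription factor of collecting duct cells, had 3.18, 3.73 and 4.24 FPKM. Slc14a2, the urea transporter of the inner medullary duct, had 2.07, 2.38 and 2.23 FPKM, and Hsd11b2, the enzyme that inactivates glucocorticoid, had 1.60, 1.56 and 1.52 FPKM. Of the genes that define the principal cell, some were at or near 0 and others lay between. Aqp2, the vasopressin-regulated water channel whose promoter is given above, had no read in any untreated library, and Avpr2, the vasopressin receptor, had 2. Of the epithelial sodium channel subunits, Scnn1a averaged 0.578 FPKM, Scnn1g 0.123 FPKM and Scnn1b had 3 reads. The potassium channel gene Kcnj1 had no read, and Nr3c2, the mineralocorticoid receptor, averaged 0.946 FPKM. Of this list the cells thus expressed Npnt, Tfcp2l1, Slc14a2 and Hsd11b2, with no more than 3 reads of Aqp2, Avpr2, Kcnj1, Scnn1b and the transcription factor gene Elf5. Gata3, another transcription factor gene of the list, averaged 0.161 FPKM.

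The intercalated cell list was almost empty. Of 16 genes, 1 was expressed: Car2, cytosolic carbonic anhydrase, at 9.95, 9.83 and 8.96 FPKM. Foxi1, the factor that specifies these cells, and Kit, Insrr, Rhcg, Rhbg and Atp6v1g3 had no read. Slc26a4, pendrin, had 22 reads and Slc4a1, the basolateral anion exchanger, had 14 over the 3 libraries. The pump subunit gene Atp6v1b1 averaged 0.245 FPKM.

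Developmental genes of the duct were expressed in part. Of 16 ureteric bud genes, 6 (37.5%) were expressed, 5 lay between and 5 were silent. Of all protein-coding genes 48.2% were expressed, so this list did not stand above the background. Hoxb7, the homeobox gene whose promoter is widely used to mark the bud, had 41.3, 37.8 and 34.9 FPKM. The paired-box gene Pax8 (chr2:24420560-24475599, minus strand), a lineage factor of the renal epithelium, had 27.5, 28.0 and 27.2 FPKM. Emx2, a homeobox gene needed for bud growth, averaged 17.8 FPKM, and Pax2, a relative of Pax8, 8.84 FPKM. Genes of GDNF signalling and its targets at the bud tip were low or not seen: Ret, the receptor for GDNF, had no read, its co-receptor gene Gfra1 averaged 0.152 FPKM, the ETS genes Etv4 and Etv5 0.946 and 0.331 FPKM, and Wnt11 had 4 reads. Sox9, a factor of the tip, was expressed at 1.16 FPKM. Tfap2b had no read and Wnt9b, a ligand of the bud stalk, had 6. Of 7 nephron progenitor genes, Eya1 at 7.89 FPKM and Sall1 at 6.51 FPKM were expressed, while Six2, the factor that keeps these progenitors, had no read.

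**Figure D2:**
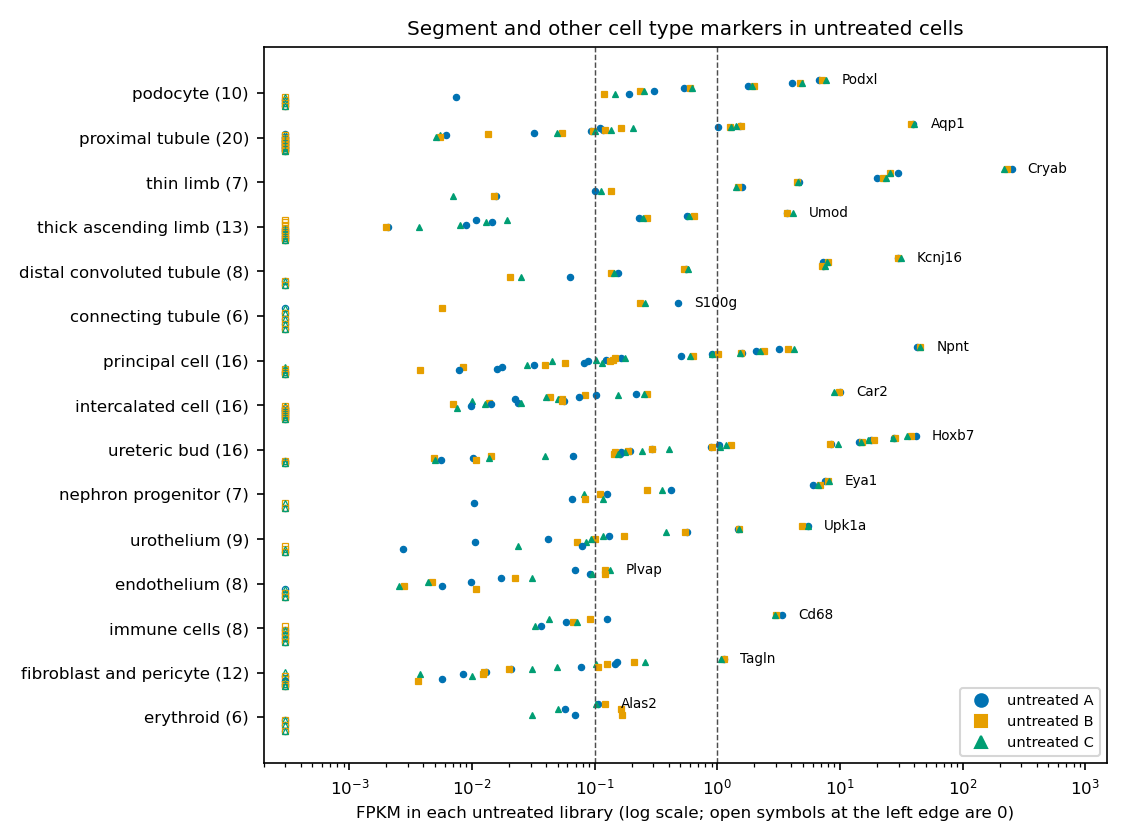
FPKM (x axis, log scale) of each gene of 15 marker lists in each of the 3 untreated libraries, 1 symbol per gene and library, with open symbols at the left edge for values of 0. Thin limb, ureteric bud and principal cell lists reach above 10 FPKM through Cryab, Hoxb7 and Npnt, while the connecting tubule, endothelium and erythroid lists hold no gene above 1 FPKM in all 3 libraries.

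Proximal tubule genes were mostly silent. Of 20, 3 were expressed, 2 lay between and 15 were silent, 10 of them with no read. Aqp1 (chr6:55336432-55348555, plus strand), the water channel of proximal tubule and thin descending limb, had 39.1, 37.7 and 40.4 FPKM and 14044 reads, which makes it the only expressed aquaporin of 12. The other expressed members were low: Slc6a19, a neutral amino acid carrier, at 1.53, 1.57 and 1.43 FPKM, and Lrp2, megalin, at 1.01, 1.27 and 1.30 FPKM. The phosphate carrier gene Slc34a1, the organic anion carrier genes Slc22a6 and Slc22a8, the nuclear receptor gene Hnf4a and the gluconeogenic genes Pck1 and Fbp1 had no read. The glucose carrier gene Slc5a2 had 18 reads, and Havcr1, the kidney injury molecule, averaged 0.160 FPKM.

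Thin limb genes were the best represented of the nephron segments by share, with 5 of 7 expressed. Cryab, a small heat shock protein gene that is abundant in the renal medulla, had 251, 230 and 216 FPKM, and the transporter gene Slc4a11 averaged 22.02 FPKM. Cryab is a stress protein gene of several tissues, so this list is not specific to a limb.

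Thick ascending limb and connecting tubule genes were mostly silent, and distal convoluted tubule genes were mixed. Of 13 thick limb genes, 1 was expressed: Umod (chr7:119462711-119479282, minus strand), uromodulin, at 3.72, 3.67 and 4.12 FPKM. Slc12a1, the sodium-potassium-chloride cotransporter of that limb, and Kcnj1, Cldn16, Ptger3 and Ppp1r1a had no read, and Bsnd, barttin, a channel subunit of that limb, averaged 0.597 FPKM. Of 8 distal convoluted tubule genes, 3 were expressed: Kcnj16, a basolateral potassium channel subunit, at 29.9, 29.8 and 31.2 FPKM, the kinase gene Wnk4 at 7.70 FPKM and Cnnm2, a magnesium transport gene, at 7.32 FPKM. The segment's salt cotransporter gene Slc12a3 had 16 reads, and Pvalb and Klhl3 had none. No connecting tubule gene of 6 was expressed, with Calb1, Trpv5, Klk1 and Slc8a1 at no read and S100g at 21 reads.

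Genes of neighbouring and foreign cell types were measured the same way. Of 10 podocyte genes, Podxl at 7.19 FPKM, Synpo at 4.57 FPKM and Clic5 at 1.89 FPKM were expressed, whereas the slit diaphragm gene Nphs1 and the podocyte factor Wt1 had no read. Of 9 urothelial genes, the uroplakins Upk1a at 5.27 FPKM and Upk3b at 1.49 FPKM were expressed, while Upk1b had no read and Upk2 had 4. Of 34 genes of endothelium, erythroid cells, fibroblasts and immune cells, 2 were expressed, 9 lay between and 23 were silent. The pair was Tagln, a smooth muscle and fibroblast gene, at 1.11 FPKM, and Cd68, a lysosomal protein gene of macrophages, at 3.36, 3.003 and 2.98 FPKM. Some genes of these cells were at or near 0. Kdr and Emcn of endothelium, Col3a1 of fibroblasts and Adgre1, Itgam and Cd3e of immune cells had no read, and Pecam1 had 3. Others carried reads without being expressed: Flt1 of endothelium had 191, the fibroblast genes Col1a1 and Postn 187 and 147, and the immune gene Ptprc 165.

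Junction genes were expressed in full. All 16 adherens junction and desmosome genes and all 15 tight junction scaffold and polarity genes passed 1 FPKM in every untreated library. Cdh16 (chr8:104601911-104624396, minus strand), the kidney-specific cadherin, had 183, 185 and 195 FPKM, above Cdh1, E-cadherin, at 66.9, 68.9 and 66.3 FPKM. Epcam, the epithelial cell adhesion molecule, had 146, 130 and 129 FPKM. The catenin genes Ctnna1 and Ctnnb1, which link cadherins to actin, averaged 155 and 149 FPKM, and Dsp, desmoplakin, averaged 35.7 FPKM. Cdh6, a cadherin of nephron precursors and proximal tubule, had 36.5, 46.2 and 56.4 FPKM. Cdh2, N-cadherin, averaged 9.54 FPKM, so Cdh1, Cdh3 and Cdh2 stood in that order, with Cdh3 at 24.7 FPKM. At the tight junction, the kinase gene Prkci averaged 67.5 FPKM, the junctional adhesion gene F11r 44.96 FPKM, Tjp1, a ZO scaffold gene, 27.5 FPKM, and Ocln, occludin, 8.28 FPKM.

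Of 23 claudin genes, which set the selectivity of the paracellular path, 9 were expressed and 10 silent. Cldn4 (chr5:134945119-134946934, minus strand), a claudin of the collecting duct, had 122, 110 and 113 FPKM. Its partner in that segment, Cldn8, averaged 31.5 FPKM, ahead of Cldn12 at 24.95 FPKM, Cldn7 at 20.4 FPKM and Cldn3 at 13.7 FPKM. Cldn2, the cation pore of the proximal tubule, averaged 7.96 FPKM. Down this order, the libraries of neighbouring claudins did not overlap. Of 51 keratin genes, 6 were expressed and 39 silent, 24 of them with no read. Krt18 (chr15:102028180-102032027, plus strand) had 283, 268 and 270 FPKM and its filament partner Krt8 176, 166 and 172 FPKM, with Krt19 at 54.3 FPKM and Krt7 at 23.9 FPKM, so the expressed keratins were led by those of simple epithelia.

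**Figure D3:**
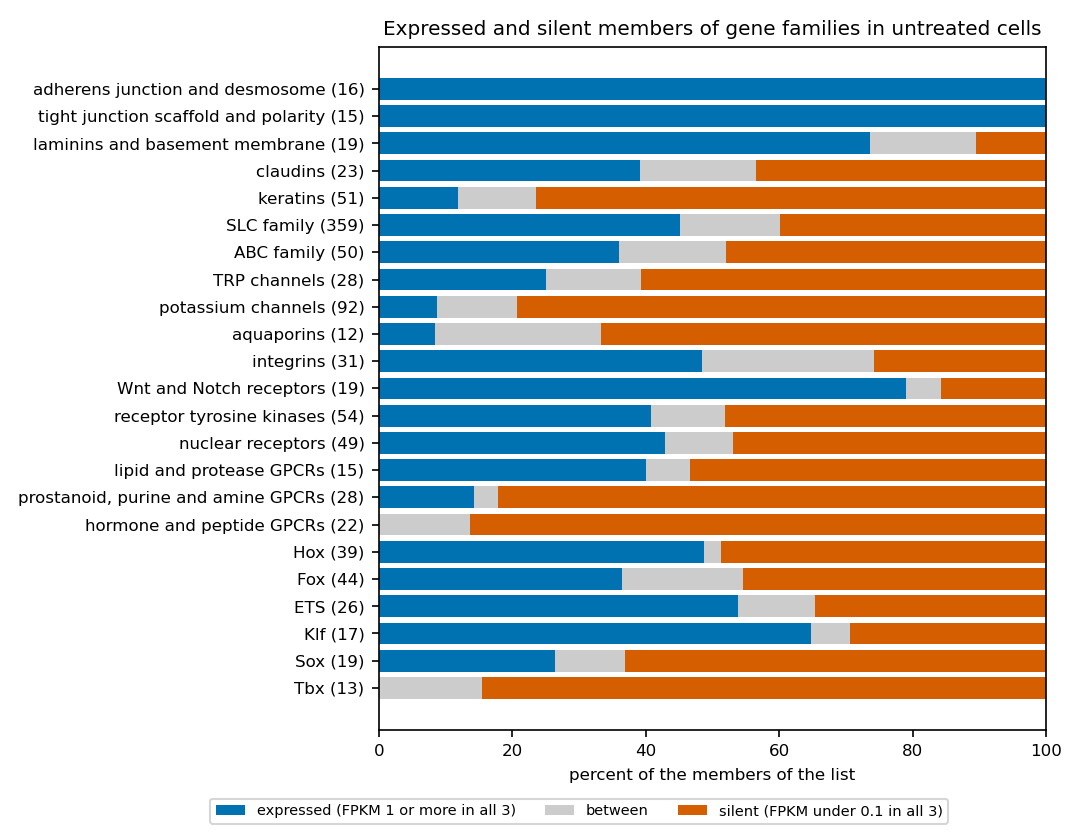
Share of the genes of 23 lists (x axis, percent) that were expressed, between or silent in the 3 untreated libraries, as stacked bars. All adherens junction and tight junction scaffold genes are expressed, against 6 of 51 keratins, 8 of 92 potassium channels and 0 of 22 hormone and peptide receptors.

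Of 10 epithelial fate genes, 8 were expressed and none was silent. The ETS factor Ehf averaged 29.2 FPKM, the grainyhead factor Grhl2 19.6 FPKM and the epithelial splicing factor genes Esrp1 and Esrp2 16.8 and 16.7 FPKM. Of 10 mesenchymal genes, 2 were expressed: Fn1, fibronectin, at 29.2, 35.3 and 41.2 FPKM, and Vim, vimentin, at 9.96, 9.18 and 8.77 FPKM. Of the others 7 lay between, with Twist1 at 1.02 FPKM and Twist2 at 0.985 FPKM close to the threshold and Zeb1 at 0.507 FPKM, and Snai2 had no read. Of 19 basement membrane genes, 14 were expressed, led by the laminin genes Lamb1 at 42.9 FPKM and Lama5 at 33.1 FPKM and the collagen gene Col4a5 at 32.2 FPKM.

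General cell programmes were active. All 17 proliferation genes were expressed, among them Pcna, the replication clamp, at 196 FPKM, Top2a at 122 FPKM, the mitotic kinase gene Cdk1 at 112 FPKM and Mki67 at 74.0, 92.8 and 103 FPKM. Of 16 genes of the primary cilium and of cystic kidney disease, 15 were expressed and the other lay between. Bicc1, an RNA-binding protein gene mutated in cystic mice, averaged 82.4 FPKM, the zinc finger factor genes Glis2 and Glis3 35.2 and 20.99 FPKM, Pkd2, polycystin-2, 14.8 FPKM and its partner Pkd1 3.37 FPKM. Of the 88 listed ribosomal protein genes, 83 were expressed and 5 silent, the silent ones being Rpl39l, Rpl3l, Rps4l, Rpl10l and Rps12l1. Among sex chromosome genes, the Y-linked Ddx3y had 26.0, 26.4 and 24.9 FPKM and Xist, the RNA that silences an X chromosome in female cells, had 5 reads.

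Of 359 genes of the solute carrier family, 162 were expressed, 54 lay between and 143 were silent. Mitochondrial carriers were among the highest: the ADP/ATP carrier genes Slc25a4 and Slc25a5 averaged 120.2 and 92.8 FPKM and the phosphate carrier gene Slc25a3 90.5 FPKM. At the plasma membrane, Slc38a2, a neutral amino acid carrier gene, averaged 110.1 FPKM and Slc2a1, the glucose carrier GLUT1, 72.9 FPKM. Among 13 glucose carriers, Slc2a1 and Slc2a8 at 4.79 FPKM were expressed, and the sodium-coupled carrier gene Slc5a1 had no read. Of 50 ABC genes, 18 were expressed, and the 3 highest, Abce1 at 47.4 FPKM, Abcf2 at 46.0 FPKM and Abcf1 at 26.6 FPKM, belong to subfamilies that act on ribosomes and carry nothing across a membrane.

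Of 16 bicarbonate and anion exchange genes, 5 were expressed, led by the anion exchanger gene Slc4a2 at 16.7 FPKM and the sodium bicarbonate cotransporter gene Slc4a7 at 5.03 FPKM.

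The sodium pump is described here by its beta subunit genes only: Atp1b1 had 87.6, 85.8 and 84.0 FPKM and Atp1b3 averaged 49.1 FPKM. Fxyd2, the gamma subunit gene that is prominent in kidney tubule, had 4 reads in the 3 libraries. Among 13 sodium entry genes, 5 were expressed, 2 lay between and 6 were silent. The ubiquitous cotransporter gene Slc12a2 was highest at 23.4 FPKM, and the apical genes Slc9a3 and Slc12a1 had no read.

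Of 92 potassium channel genes, 8 were expressed and 73 silent, 38 of them with no read. Kcnk1, a leak channel of the 2-pore family, had 132, 128 and 129.6 FPKM, which put it far above Kcnj16 at 30.3 FPKM and Kcnk5, another leak channel, at 11.4 FPKM. Of 20 chloride channel genes, 13 were expressed, led by the lipid scramblase gene Ano6 at 25.3 FPKM, the lysosomal exchanger gene Clcn7 at 13.9 FPKM and Lrrc8b, a subunit of the volume-regulated channel, at 13.7 FPKM, while Cftr averaged 0.573 FPKM. Of 28 TRP channel genes, 7 were expressed, with Trpv4, a channel opened by cell swelling, at 35.3, 35.6 and 37.8 FPKM, followed by Trpm4 at 16.8 FPKM and Mcoln1 at 15.2 FPKM.

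Osmolyte genes of the medulla were present without added salt, apart from the betaine carrier. Slc6a6, the taurine carrier gene, had 43.1, 49.3 and 52.1 FPKM, Akr1b3, aldose reductase, which makes sorbitol, had 28.0, 24.2 and 24.5 FPKM, and Slc5a3, the inositol carrier gene, averaged 5.98 FPKM. Slc6a12, the betaine carrier gene, had 6 reads and the urea transporter gene Slc14a1 had 3. Nfat5, the transcription factor that drives these genes under hypertonic stress, had 28.1, 33.9 and 35.8 FPKM.

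**Figure D4:**
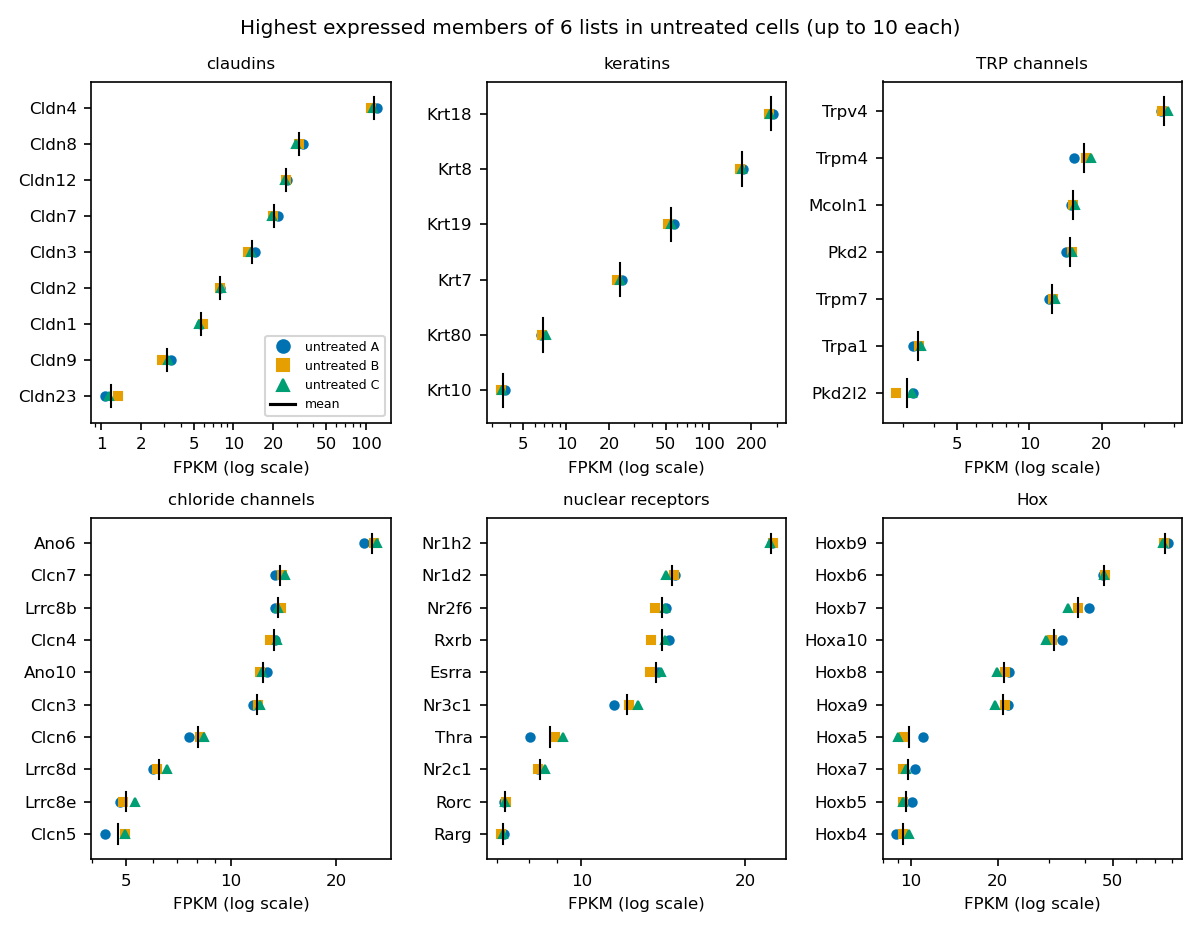
FPKM per untreated library (x axis, log scale) of up to 10 of the highest expressed genes in 6 families: claudins, keratins, TRP channels, chloride channels, nuclear receptors and Hox genes. Cldn4, Krt18, Trpv4 and Hoxb9 head their families, and the symbols of the 3 libraries lie close together for each gene.

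Hormone and peptide receptors of the G-protein-coupled class were mostly silent. Of 22 hormone and peptide receptor genes of the G-protein-coupled class, 0 were expressed, 3 lay between and 19 were silent, 10 of them with no read. The angiotensin receptor gene Agtr1a, the endothelin receptor gene Ednrb and the vasopressin receptor gene Avpr1a had no read, and Bdkrb2, the bradykinin receptor gene, was highest at 0.390 FPKM. Of 28 prostanoid, purine and amine receptor genes, 23 were also silent, 13 of them with no read, 1 lay between and 4 were expressed, namely the prostaglandin E2 receptor genes Ptger1 at 6.21, 6.70 and 7.37 FPKM and Ptger4 at 6.24 FPKM, the adenosine receptor gene Adora1 at 5.51 FPKM and the nucleotide receptor gene P2ry2 at 1.72 FPKM. Among lipid and protease receptors, the protease-activated receptor genes F2r and F2rl1 averaged 35.7 and 25.05 FPKM.

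Growth factor and matrix receptors were more widely expressed than hormone and peptide receptors. Of all protein-coding genes 48.2% were expressed, against 40.7% of receptor tyrosine kinase genes and 48.4% of integrin genes. The shares were 64.3% for TGF-beta and BMP receptor genes and 78.9% for Wnt and Notch receptor genes. Of 54 receptor tyrosine kinase genes, 22 were expressed, led by Met, the hepatocyte growth factor receptor, at 37.4, 39.5 and 40.4 FPKM, and Ddr1, a collagen receptor, at 27.0 FPKM. Csf1r, the colony-stimulating factor receptor known from macrophages, had 23.9, 25.7 and 26.7 FPKM. Among macrophage genes, Adgre1 and Itgam had no read, while Cd68 was expressed at a mean of 3.11 FPKM. Erbb2 and Egfr, which bind or partner in binding epidermal growth factors, averaged 22.1 and 19.4 FPKM. Of 31 integrins, 15 were expressed, with the beta subunit gene Itgb1 at 199.7, 198 and 191 FPKM. Next in the integrin list were Itgb5 and Itga3, both at 44.4 FPKM. Of 14 TGF-beta and BMP receptor genes, 9 were expressed, with Tgfbr2 at 22.7 FPKM and Bmpr1a at 18.2 FPKM. Of 19 Wnt and Notch receptor genes, 15 were expressed, among them Lgr4 at 35.8 FPKM and Fzd6 at 33.2 FPKM. A second entry under the symbol Fzd6, whose gene ID had no GENCODE match, had 29.6, 29.8 and 29.6 FPKM. Tlr3, a sensor of double-stranded RNA, at 15.8 FPKM headed 4 expressed Toll-like receptors of 12. Of 49 nuclear receptor genes, 21 were expressed, led by the oxysterol receptor gene Nr1h2 at 22.4 FPKM, with the glucocorticoid receptor gene Nr3c1 at 12.1 FPKM.

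Of 239 listed transcription factor genes, 107 were expressed, 27 lay between and 105 were silent, 61 of them with no read. The Hox genes, which encode position along the body axis, divided by cluster: 10 of 11 Hoxa genes and 9 of 10 Hoxb genes were expressed, against 0 of 9 Hoxc genes and 0 of 9 Hoxd genes. Hoxb9 was highest at 77.9, 75.5 and 74.6 FPKM, followed by Hoxb6 at 46.6 FPKM, Hoxb7 at 38.0 FPKM and Hoxa10 at 31.2 FPKM. The highest Hoxc gene, Hoxc6, had 6 reads. Other families were read in part: 16 of 44 Fox genes were expressed, with Foxc1 at 36.0 FPKM and Foxj1, the factor of motile cilia, at 22.3 FPKM, 14 of 26 ETS genes, 5 of 19 Sox genes, 4 of 6 Irx genes, all 4 Tead genes and 0 of 6 Gata, 0 of 13 Tbx and 0 of 8 Lhx genes. Gata3, a factor of the duct lineage, averaged 0.161 FPKM. The Irx genes, which pattern the nephron, were either clearly present or absent: Irx5 averaged 7.52 FPKM, Irx3 7.08 FPKM, Irx1 5.46 FPKM and Irx2 3.72 FPKM, and Irx4 and Irx6 had no read.

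Factors of signalling pathways were expressed more evenly. Of 9 Irf genes 7 were expressed, with Irf3 at 14.6 FPKM, Irf1 at 12.4 FPKM and Irf7 at 11.6 FPKM, and of 7 Stat genes 6, with Stat6 at 21.2 FPKM and Stat2 at 15.6 FPKM. These families carry interferon and cytokine signals, and Ifit3, described above, is one of their targets. Of 12 AP-1 genes 8 were expressed, led by Junb at 42.9 FPKM, and of 17 Klf genes 11, led by Klf6 at 18.5 FPKM. The Id genes, whose products block basic helix-loop-helix factors, stood at 34.9 FPKM for Id2, 20.5 FPKM for Id3 and 18.8 FPKM for Id1.

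The untreated libraries differed little for most genes. Over the 6353 genes whose mean FPKM reached 10, the median coefficient of variation was 4.75%, the 95th percentile was 11.4% and 26 genes passed 20%. Of the 10 most variable, 4 are very long: Syne2, a giant protein of the nuclear envelope, had 12.2, 17.1 and 20.1 FPKM, Hspg2, the matrix proteoglycan perlecan, 17.2, 23.7 and 28.1 FPKM, and Ubr4, a giant ubiquitin ligase, 7.67, 10.6 and 12.5 FPKM. Rnf213, also a giant ubiquitin ligase, had 13.1, 17.5 and 22.9 FPKM. Each of these was lowest in A and highest in C. The others are short pseudogenes and a miRNA gene with few reads. Highest in A were Gm16020 at 21.2, 15.0 and 13.3 FPKM, Gm15151 at 32.6, 25.5 and 20.4 FPKM and the miRNA gene Gm24951 at 20.96, 15.6 and 12.8 FPKM. Gm16200 and Gm7363 were also highest in A and lowest in C, while Gm13378 was lowest in A at 8.72 FPKM, against 14.6 in B and 16.3 in C.

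Each treated group was then compared with the untreated libraries by limma on log2(FPKM + 0.5), with Benjamini-Hochberg adjustment over 14044 genes and an adjusted p under 0.05 as the threshold. The 3 comparisons share the untreated libraries, so they are set side by side and not against each other. The classes expressed and silent were set with the untreated values that enter each comparison, so a silent gene could hardly be lower in a treated group. A fold change on this scale understates the change of low genes. Of the 636 listed genes expressed in untreated cells, 192 rose and 341 fell under mifepristone plus NaCl, where of all 12806 expressed genes 28.4% rose and 42.8% fell. Under mifepristone alone 208 rose and 284 fell, against 26.7% and 33.8% of all expressed genes, and under NaCl alone 181 rose and 278 fell, against 24.1% and 33.7%. The median change of all expressed genes was -0.08, -0.03 and -0.04 in that order. Ribosomal protein genes held many of the lower calls: 80, 73 and 80 of 83 fell and 2, 2 and 0 rose. Their share of FPKM was highest in untreated library A, and without that library 79, 62 and 79 of them fell.

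The classes themselves held for most genes. Of the 636 expressed listed genes, 607 were also expressed under mifepristone plus NaCl, 613 under mifepristone and 618 under NaCl. Of the 609 silent ones, 533, 569 and 569 were also silent in those groups in that order, and 8, 1 and 2 were expressed. Umod was the only listed gene that was expressed in untreated cells and silent in a treated group, with 0.0316, 0.0775 and 0.0361 FPKM under mifepristone plus NaCl. The genes silent in untreated cells and expressed in a treated group were Fxyd2, Slc6a12, Kcnt1, Slc26a4, Slc6a13, Kcnk3, Esrrb and Tlr6.

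**Figure D5:**
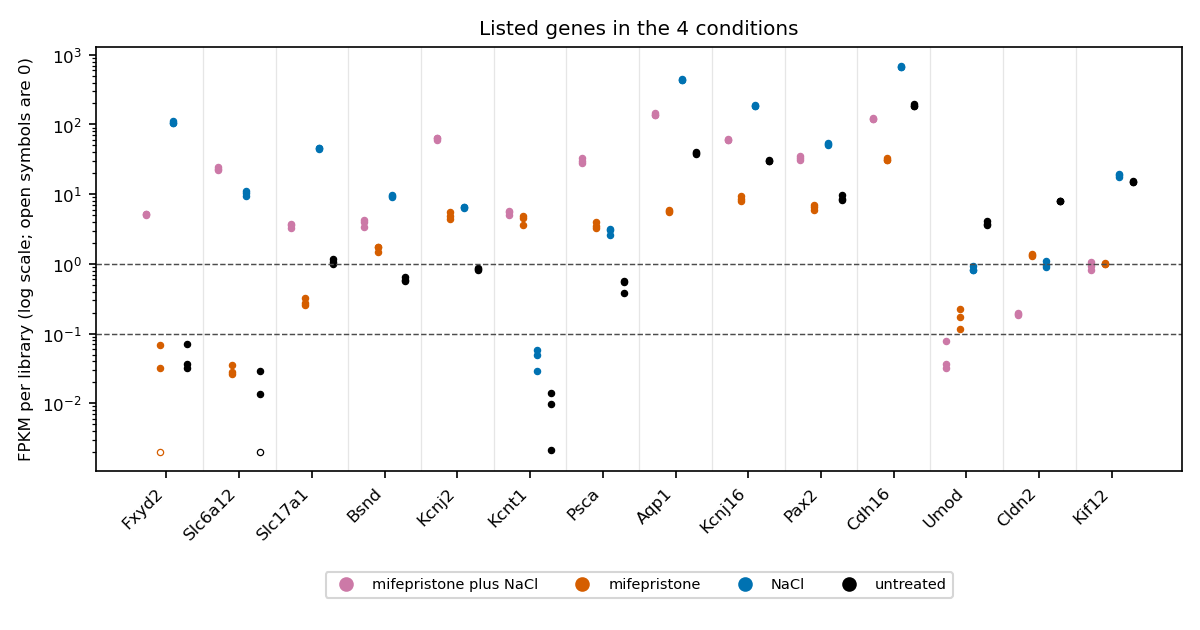
FPKM (y axis, log scale) of 14 genes in each library of the groups mifepristone plus NaCl, mifepristone, NaCl and untreated, from left to right, 1 symbol per library. Fxyd2 and Slc6a12 stand above 1 FPKM in both NaCl groups and near 0 in untreated cells, Kcnt1 above 1 FPKM in both mifepristone groups, and Umod and Cldn2 are highest in untreated cells.

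Kidney genes silent in untreated cells included some that the same cells expressed under salt. Fxyd2 had 5.01, 5.12 and 5.21 FPKM under mifepristone plus NaCl, 0.0696, 0 and 0.0319 FPKM under mifepristone and 106, 106 and 114 FPKM under NaCl, against 0.0365, 0.0707 and 0.0325 FPKM in untreated cells. Both salt groups lay above every untreated library, and the limma change was 7.64 (SE 0.0549, adjusted p = 9.82e-15) under NaCl. It was 3.36 (adjusted p = 1.56e-12) under mifepristone plus NaCl and -0.04 (adjusted p = 0.605) under mifepristone. Slc6a12 had 22.1, 23.2 and 24.4 FPKM under mifepristone plus NaCl and 9.54, 10.3 and 11.2 FPKM under NaCl, against 0, 0.0293 and 0.0135 FPKM in untreated cells, and the limma changes were 5.53 and 4.40 (adjusted p = 1.62e-13 and 9.49e-13). Of genes with intermediate levels in untreated cells, Slc17a1, a proximal tubule phosphate carrier, averaged 3.55 ± 0.266, 0.285 ± 0.0348 and 45.8 ± 0.607 FPKM in the 3 treated groups in the order above, against 1.08 ± 0.0921 FPKM in untreated cells (SD, n = 3 each). Bsnd averaged 3.90, 1.66 and 9.37 FPKM, against 0.597 FPKM in untreated cells. All 4 genes rose in both comparisons with added NaCl.

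Other genes low in untreated cells were higher in the mifepristone groups. Kcnt1, a sodium-activated potassium channel, averaged 5.48 FPKM under mifepristone plus NaCl and 4.34 FPKM under mifepristone, against 0.00866 FPKM in untreated cells, with limma changes of 3.55 and 3.24 (adjusted p = 3.59e-11 and 1.97e-10). It averaged 0.0457 FPKM under NaCl, a change of 0.10 (adjusted p = 0.354). Kcnj2, an inward rectifier, averaged 62.7, 4.93 and 6.47 FPKM in the 3 treated groups, against 0.844 FPKM in untreated cells, and Psca, a urothelial surface protein gene, 30.3, 3.61 and 2.94 FPKM against 0.497 FPKM. Both rose in all 3 comparisons. Reads of Aqp2 and Avpr2 stayed few in each group: Aqp2 had 11, 0 and 2 reads in the treated groups, against 0 in untreated cells, and Avpr2 had 2, 4 and 1 reads against 2.

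Genes of other cell types were low in each group. The 12 fibroblast and pericyte genes summed to 4.58 to 4.76 FPKM under mifepristone plus NaCl, 7.08 to 7.65 FPKM under mifepristone and 1.40 to 1.55 FPKM under NaCl, against 1.53 to 1.62 FPKM in untreated cells. Most of the difference was Dcn, decorin, a matrix proteoglycan, which averaged 2.98, 5.69 and 0.0735 FPKM in the 3 treated groups, against 0.0780 FPKM, and rose in both mifepristone comparisons. The 8 immune genes summed to 5.62 to 6.16, 3.99 to 4.39 and 3.14 to 3.61 FPKM, against 3.12 to 3.58 FPKM, nearly all of it Cd68. The 8 endothelial genes summed to 0.829 to 0.977, 0.357 to 0.423 and 0.418 to 0.554 FPKM in the 3 treated groups, against 0.194 to 0.285 FPKM in untreated cells. The 6 erythroid genes summed to 2.14 to 2.75, 0.607 to 0.795 and 0.482 to 0.828 FPKM, against 0.184 to 0.453 FPKM, and 2 of them were expressed under mifepristone plus NaCl. All these endothelial and erythroid sums in treated cells lay above every untreated library. What part such cells have in the changes above was not tested.

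Among kidney genes expressed in untreated cells, direction depended on the group. Aqp1 had 147, 138 and 139 FPKM under mifepristone plus NaCl, 5.70, 5.47 and 5.93 FPKM under mifepristone and 442, 433 and 428 FPKM under NaCl, against 39.1, 37.7 and 40.4 FPKM in untreated cells. No 2 groups overlapped, and the limma changes were 1.84, -2.67 and 3.46 (SE 0.0425 each, adjusted p = 1.77e-11, 4.19e-12 and 4.51e-13). Cdh16 had 125, 119 and 119.7 FPKM, 32.5, 31.2 and 31.2 FPKM, and 673, 672 and 684 FPKM in the same 3 groups, against 183, 185 and 195 FPKM in untreated cells, so it fell in both mifepristone groups (-0.63 and -2.55) and rose under NaCl (1.84). Kcnj16 changed by 1.003, -1.77 and 2.58 and Pax2 by 1.83, -0.42 and 2.52. The untreated level of these 4 genes was thus intermediate between that of the mifepristone group and that of the NaCl group.

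Another set stood highest in untreated cells. Cldn2 averaged 0.192, 1.34 and 0.980 FPKM in the 3 treated groups, against 7.96 FPKM in untreated cells, with changes of -3.61, -2.20 and -2.52, and Foxj1 averaged 1.15, 3.69 and 5.83 FPKM, against 22.3 FPKM. Csf1r averaged 6.11, 6.28 and 18.1 FPKM, against 25.4 FPKM, and Irx5 1.14, 2.49 and 5.75 FPKM, against 7.52 FPKM. Each fell in every comparison. Of the 4 expressed Irx genes, 4, 4 and 3 fell and 0 rose. Of the 15 expressed cilium and cyst genes, 13, 11 and 7 fell and 1, 1 and 2 rose, where 42.8%, 33.8% and 33.7% of all expressed genes fell. Of the 4 expressed principal cell genes 3 fell and 1 rose in each comparison. The one that rose was Hsd11b2 in both mifepristone comparisons and Npnt (0.66) under NaCl, where Hsd11b2 (-1.20), Tfcp2l1 (-0.53) and Slc14a2 (-0.32) fell.

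Epcam, Krt18 and Cdh1, other genes high in the untreated epithelial profile, changed by less than 1 on the log2 scale. Epcam had 112, 114 and 106 FPKM under mifepristone plus NaCl, 134, 134 and 155 FPKM under mifepristone and 94.0, 89.2 and 90.9 FPKM under NaCl, against 146, 130 and 129 FPKM in untreated cells, and its changes were -0.28, 0.06 (adjusted p = 0.454) and -0.56. Krt18 changed by -0.30, 0.30 and -0.65, Cdh1 by -0.32, 0.25 and -0.72 and Kcnk1 by -1.03, -0.44 and -0.15. The pump beta subunit genes Atp1b1 and Atp1b3 were lowest in untreated cells and rose in every comparison, with Atp1b1 averaging 496, 157 and 360 FPKM in the 3 treated groups, against 85.8 FPKM. Of the 19 expressed Hox genes, 3, 12 and 4 rose and 14, 2 and 7 fell, where of all expressed genes 28.4%, 26.7% and 24.1% rose and 42.8%, 33.8% and 33.7% fell, so the NaCl counts lay near the background. Among them was Hoxb9 at 70.4, 131 and 57.5 FPKM, against 76.0 FPKM in untreated cells. Cryab averaged 1434, 330.5 and 1132 FPKM and Akr1b3 1139, 41.4 and 839.9 FPKM, against 232 and 25.6 FPKM in untreated cells.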

How the data were processed

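Per the labels' protocols, RNA of subclone 53a was extracted with a miRNeasy kit and turned into 12 poly(A) TruSeq libraries, 3 per group. The authors deposited 1 FPKM value per gene and library. The submitters' processing notes name Trimmomatic 0.32, STAR 2.4.2a, SAMtools 1.0, DESeq2 1.12.3 and the build GRCm38 (mm10) without saying what each did. How reads were counted, over which annotation and with which strand setting, is not given in the sources used here, and reads of a gene and an antisense or overlapping partner cannot be told apart. The authors also deposited a mean signal per gene, a normalized count averaged over all libraries. FPKM times the ratio of that mean to the gene's mean FPKM gave whole reads in each library (tolerance 0.05), from which depth was taken. Columns for untreated and NaCl cells carry the sample titles. Columns named for the mutant were taken as mifepristone libraries by the letter, the salt part of the name and knowledge of the study. The number of columns without a sample was 0.

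Gene IDs were matched to GENCODE (98.5% matched) and promoters to RefSeq. The untreated profile is a description with no test. Treated groups were compared with untreated cells by limma 3.58.1 in R 4.3.3 (trended and robust, 4 group means, log2(FPKM + 0.5), 14044 genes that reached FPKM 1 in 3 or more libraries), and the script was tested on simulated data. Tables were made with Python 3.11.15, pandas 2.3.3, numpy 2.4.6 and scipy 1.17.1. The rule named the 25 highest protein-coding genes, up to 6 highest and the silent genes of each list (of these, those the text describes are printed), the 10 most variable genes, and listed genes with the largest changes. Genes named outside that rule, including the members of a list given between or below those 6 and the example genes of the comparisons, were chosen after their values were seen. The members and lists were chosen with earlier results of these data known. Alternatives covered pseudocount, filter, scaling, voom on the recovered reads, class thresholds, TPM and left-out libraries. The gene of the induced factor and a few list members are not reported here, and the authors' fold changes were not used here.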

Additional observations from a re-analysis of the deposited data

How the results depend on the processing

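The alternatives were checked gene by gene only for the listed genes with the largest changes. Their changes kept direction and call in all 985 checks. Other named changes, and those not called, were not rechecked. The class of a single gene was not followed, and a low gene such as Hsd11b2 at 1.56 FPKM is not expressed at a threshold of 2. The counts of expressed and silent genes and the numbers of called genes moved by no more than 1.5 times, with the exceptions below. As a share of reads in place of FPKM, the 10 highest genes held 6.17% and not 15.9%, the 100 highest 13.6% and not 33.3%, the mitochondrial genes 4.52% and not 9.88% and the ribosomal protein genes 4.49% and not 6.90%, since reads are not divided by length. With genes of mean FPKM of at least 5 alone, mifepristone plus NaCl gave 6595 calls against 9936, since fewer genes were tested. With no filter on low values 56.8% of the calls of that comparison were higher, against 44.2%, and under voom 36.5% of the NaCl calls were higher, against 44.5%; the cause was not tested. Leaving out 1 untreated library gave 12876 to 12964 expressed and 29235 to 29423 silent genes, and leaving out 1 library of any group gave 9191 to 10548 calls under mifepristone plus NaCl, 7571 to 9129 under mifepristone and 6901 to 8946 under NaCl. With thresholds of 0.5 and 0.05, 14100 genes were expressed and 27058 silent, with 2 and 0.2, 11450 and 30684, and with TPM in place of FPKM, 14149 and 26918. The number of expressed members moved by over 1.5 times in 5 of 65 lists with TPM, in 5 with the lower thresholds, in 4 with the higher ones and in 1 without untreated library A. The replicate letters did not pair the libraries, with correlations of same-letter deviations between -0.50 and 0.29, and a replicate block gave 9613, 7972 and 7479 calls under mifepristone plus NaCl, mifepristone and NaCl. Depth limits genes with few reads, which for short genes includes levels above 0.1 FPKM: S100g at 0.324 FPKM rests on 21 reads and Cldn20 at 0.251 FPKM on 23.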
